A study of Arabidopsis thaliana with 8 samples.

Results

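The genes described here are 5 nuclear genes of *Arabidopsis thaliana* for pentatricopeptide repeat (PPR) proteins, AT4G04370, AT2G46050, AT4G21170, AT3G51320 and AT1G79080. They are 5 of the 691 genes that the array's annotation assigns to a probe of their own, and each has 1 such probe. They were chosen by their values on these same arrays, namely a higher signal in the mutant than in wild type, so their direction and size between genotypes are given as a description, with no p-value. Total RNA was hybridised to 8 arrays, 4 for the *atpd* mutant, in which the ATP synthase delta subunit is missing, and 4 for wild type (WT). Plants of both genotypes were of ecotype Wassilevskija and were raised on MS (Murashige and Skoog) medium. The labels state no age, tissue, allele or treatment. All 8 sample titles open with the same number, whose meaning is not stated. They do not state that replicate arrays were made from different plants, so the spread between them may be technical.

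PPR proteins are built from a tandem run of short helical repeats that together recognise a stretch of single-stranded RNA. They are encoded in the nucleus, and nearly all of them act in chloroplasts or mitochondria, where individual members edit, splice, cut, stabilise or help translate particular organelle transcripts. In plants the family is very large, and loss of a single member often blocks the expression of a single organelle gene. The reference gene table lists the 5 genes by locus number alone, with no symbol. The organelle each protein enters and the transcript it binds are therefore not stated here. In that table AT4G21170 overlaps its neighbour AT4G21160, and none of the other 4 overlaps another gene.

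Across the whole table, each array gave a deposited intensity for 3439 probes, on an arbitrary scale from 0 to 100, with 395 to 430 probes per array at 0. The median intensity of probes above 0 was 0.613 to 0.705 on the *atpd* arrays and 0.279 to 0.303 on the WT arrays, and a raw value that was higher in *atpd* was common in the table. Therefore 3 scales are used. These are the deposited intensity, the percentile of the probe within its array (the share of the other probes that are dimmer, which needs no scaling), and the log2 value after quantile normalisation between arrays, from which differences between genotypes are given as *atpd* minus WT. Arrays of a genotype fell into 2 sets, replicates 1 and 2 and replicates 3 and 4, whose members resembled each other. All 5 genes were above 0 on all 8 arrays. Since the scale of a probe is its own, intensities are compared between genotypes for each gene and not between genes.

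AT4G04370 had the largest difference. Its intensity was 1.22, 1.23, 1.11 and 1.12 on *atpd* arrays 1 to 4, against 0.104, 0.0425, 0.0942 and 0.114 on WT arrays 1 to 4. The genotypes lay far apart, with the lowest *atpd* value well above the highest WT value, and WT array 2 was the lowest of all. The mean was 1.17 ± 0.0625 in *atpd* and 0.0887 ± 0.0319 in WT (SD, n = 4 each). Within the arrays the probe stood at the 80.5th to 85.3rd percentile in *atpd* and at the 15.7th to 27.1st in WT, on opposite sides of the middle of the array. After normalisation the log2 difference was 2.63 (SE 0.26), a fold of 6.18, and 98.6% of the 2921 probes tested across the table had a smaller one. Without WT array 2 the difference was 2.34.

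AT2G46050 behaved much like it. The intensity was 1.15, 1.17, 0.919 and 1.07 on the *atpd* arrays and 0.108, 0.0990, 0.0945 and 0.150 on the WT arrays, in replicate order. Again every *atpd* value exceeded every WT value, with *atpd* array 3 the lowest of its genotype and WT array 4 the highest of its own. Means were 1.08 ± 0.112 in *atpd* and 0.113 ± 0.0254 in WT (SD, n = 4 each). The probe was at the 71.1st to 83.6th percentile in *atpd* and the 22.0th to 33.0th in WT. The log2 difference was 2.13 (SE 0.19), a fold of 4.38, and 97.0% of tested probes had a smaller one.

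AT4G21170 showed an intermediate difference. Its intensity was 1.54, 1.58, 1.38 and 1.32 on the *atpd* arrays and 0.290, 0.351, 0.271 and 0.210 on the WT arrays. The *atpd* arrays 1 and 2 were above arrays 3 and 4, and the same order held in WT, and both genotypes thus shifted the same way between the array sets. Means were 1.45 ± 0.125 in *atpd* and 0.281 ± 0.0582 in WT (SD, n = 4 each). The percentile ran from 86.9 to 91.3 in *atpd* and from 42.5 to 65.0 in WT, the widest spread within WT among the 5 genes. The log2 difference was 1.48 (SE 0.19), a fold of 2.79, and 91.9% of tested probes had a smaller one. The annotation gives the probe to AT4G21170 alone, and whether its sequence extends into the overlapping AT4G21160 is not stated.

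AT3G51320 was already among the brighter probes of the WT arrays and differed little. The intensity was 1.37, 1.30, 1.28 and 1.45 on the *atpd* arrays, against 0.547, 0.459, 0.509 and 0.639 on the WT arrays. The genotypes did not overlap, and array 4 was the brightest of both. The mean was 1.35 ± 0.0796 in *atpd* and 0.538 ± 0.0760 in WT (SD, n = 4 each), with percentiles of 86.0 to 89.4 in *atpd* and 74.2 to 80.3 in WT. The log2 difference was 0.53 (SE 0.13), a fold of 1.44, and 73.3% of tested probes had a smaller one.

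AT1G79080 had a log2 difference close to that of AT3G51320. Its intensity was 0.701, 0.763, 0.744 and 0.702 on the *atpd* arrays and 0.198, 0.204, 0.258 and 0.254 on the WT arrays. The *atpd* values were closely spaced and all above the WT values, of which arrays 3 and 4 were the higher. Means were 0.727 ± 0.0313 in *atpd* and 0.229 ± 0.0321 in WT (SD, n = 4 each). The probe stood at the 55.6th to 66.9th percentile in *atpd* and the 40.5th to 50.4th in WT, in the middle of the array in both genotypes. The log2 difference was 0.51 (SE 0.15), a fold of 1.42, and 73.0% of tested probes had a smaller one.

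**Figure D1:**
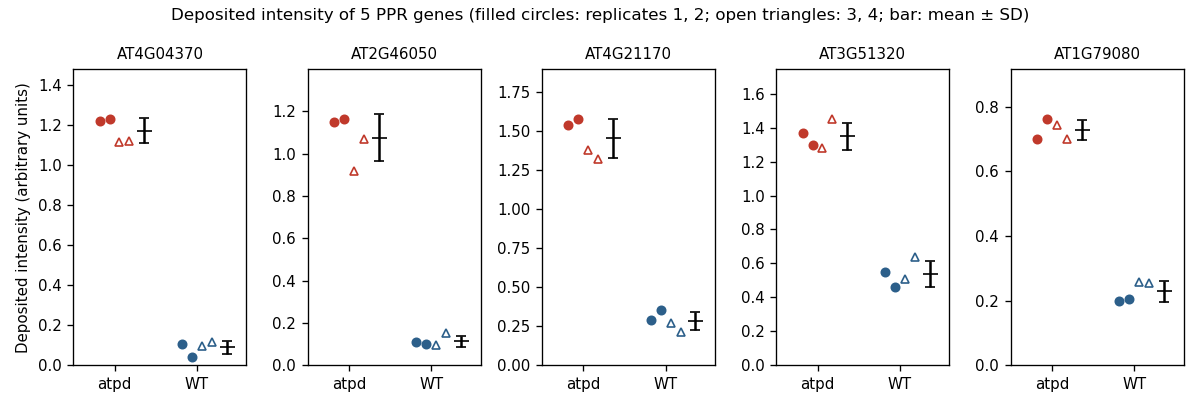
Deposited intensity (arbitrary units, a separate axis from 0 for each gene) of the 5 PPR genes on the 4 *atpd* arrays (left in each panel) and the 4 WT arrays, with the mean ± SD as a bar. For every gene all *atpd* points lie above all WT points. As a ratio of means the gap is widest for AT4G04370 (means 1.17 in *atpd* and 0.0887 in WT) and narrowest for AT3G51320 (1.35 in *atpd* and 0.538 in WT).

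For 5 of the 5 genes every *atpd* intensity was above every WT intensity, but so it was for 59.7% of the 2921 tested probes. On percentiles the genotypes were also apart for 5 of 5, against 21.3% of tested probes. In the limma fit over all probes, 5 of 5 passed an adjusted p of 0.05 with a higher value in *atpd*, against 21.4% of tested probes. With arrays of the same genotype and array set as a random block, 3 of 5 passed, not AT3G51320 and AT1G79080, against 336 of the 2921 tested probes. It was 4 of 5 with a common median (not AT3G51320), against 545 of the 2921 tested probes. With replicates 3 and 4 alone it was 4 of 5 (not AT1G79080), against 695 of 2885 tested probes. Without *atpd* replicate 2 it was also 4 of 5 (not AT1G79080), where 546 of all tested probes were called higher. Nothing can be read from these counts of members, because the genes were picked for this contrast. The median log2 difference was 1.48 over the 5 genes and -0.090 over all tested probes.

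As a difference in rank within the array, 3 genes stood well above the other two. The mean percentile was higher by 60.3 points for AT4G04370 (82.8 ± 2.46 in *atpd* and 22.5 ± 4.85 in WT), by 53.3 points for AT2G46050 (79.0 ± 5.71 in *atpd* and 25.7 ± 4.93 in WT) and by 35.2 points for AT4G21170 (89.2 ± 2.01 in *atpd* and 54.1 ± 9.33 in WT; SD, n = 4 each). It was higher by 15.5 points for AT1G79080 (61.2 ± 4.76 in *atpd* and 45.8 ± 5.21 in WT) and by 10.1 points for AT3G51320 (87.4 ± 1.56 in *atpd* and 77.3 ± 3.24 in WT). A probe that starts high can rise only a little. Set against the room left above the WT mean, the rise of AT4G04370 took up 77.8%, that of AT4G21170 76.5% and that of AT2G46050 71.7%. The figure was 44.5% for AT3G51320 and 28.5% for AT1G79080. AT3G51320 thus had the smallest rise in points but not the smallest share of the room it had.

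**Figure D2:**
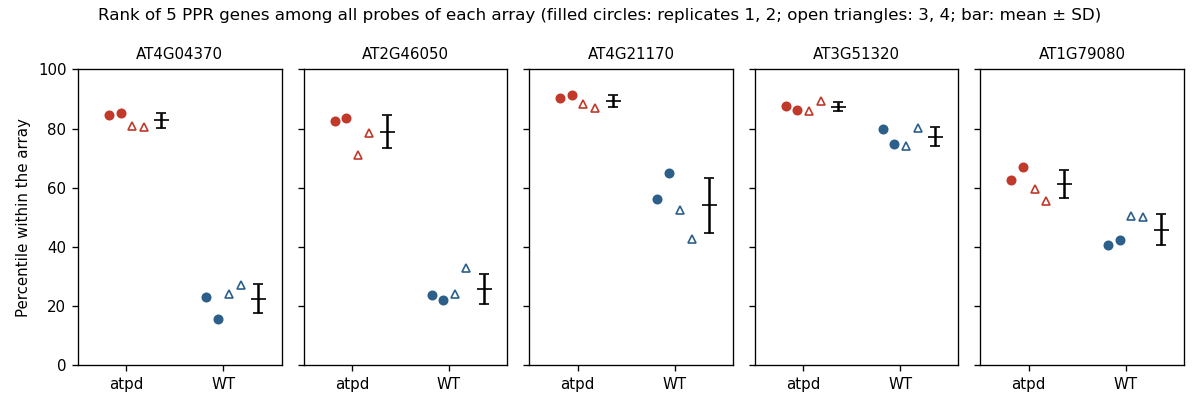
Percentile of each of the 5 PPR probes among all 3439 probes of its array (0 dimmest, 100 brightest) on the 4 *atpd* arrays (left in each panel) and the 4 WT arrays, with the mean ± SD as a bar. AT4G04370 averaged 82.8 in *atpd* and 22.5 in WT and AT2G46050 averaged 79.0 in *atpd* and 25.7 in WT, while AT3G51320 lies in the upper part of the array in both genotypes.

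The genes were also set beside probes of like overall brightness. When the tested probes were divided into 5 equal classes by their mean over all 8 arrays, the median log2 difference was -0.39 in the dimmest class and between -0.16 and 0.040 in the other classes. AT4G04370 fell into class 2 from the dim end, where 99.3% of probes had a smaller difference. AT2G46050 and AT1G79080 shared class 3, and 98.6% of its probes had a smaller difference than AT2G46050 and 71.7% a smaller one than AT1G79080. AT4G21170 lay in class 4 (93.2% smaller) and AT3G51320 in the brightest (73.8% smaller). AT2G46050 and AT1G79080 thus shared a class, but the mean that sets the class includes the *atpd* values. Their mean percentiles in WT were 25.7 and 45.8, and whether brightness bears on the sizes was not tested.

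Among themselves the genes could be compared array by array, with arrays of the same replicate number set against each other. All 10 pairs were compared, as a description. Numbers of the same array set resembled each other, so the 4 numbers are not fully independent and the SEs may be too small. AT4G04370 exceeded AT2G46050 by 0.50 on the log2 scale (SE 0.18, n = 4 numbers), with the same sign for 4 of 4 numbers. AT2G46050 exceeded AT4G21170 by 0.65 (SE 0.28), with that sign for 3 of 4 numbers, so their order is not settled by these arrays. AT4G21170 exceeded AT3G51320 by 0.95 (SE 0.10) and AT1G79080 by 0.97 (SE 0.23), each for 4 of 4. AT3G51320 and AT1G79080 differed by 0.016 (SE 0.17), with 2 numbers each way. The steadiest of all the gaps was that between AT2G46050 and AT1G79080, at 1.62 (SE 0.054), although both differences themselves varied between arrays.

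The array sets bear on this order. In replicates 1 and 2 alone, normalised by themselves, the log2 difference was 3.04 for AT4G04370, 2.44 for AT2G46050 and 0.76 for AT1G79080. In replicates 3 and 4 alone it was 2.23, 1.83 and 0.26 for the same genes, so these 3 were further apart between genotypes in the first set. AT4G21170, at 1.41 in the first set and 1.56 in the second, and AT3G51320, at 0.51 and 0.54, hardly moved. Of the last 2 genes in the order, AT1G79080 thus had the larger difference in replicates 1 and 2 and AT3G51320 in replicates 3 and 4. The difference between the sets was not tested.

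**Figure D3:**
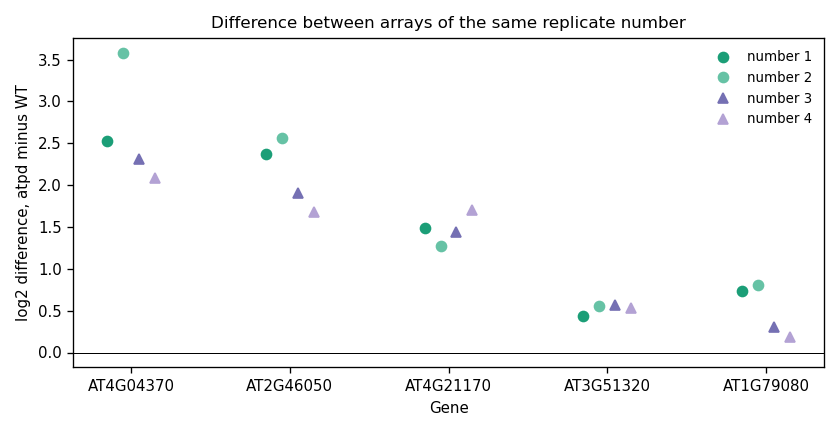
Log2 difference, *atpd* minus WT, between normalised arrays of the same replicate number for each of the 5 PPR genes (circles for numbers 1 and 2, triangles for 3 and 4). For AT4G04370, AT2G46050 and AT1G79080 both circles lie above both triangles, while AT3G51320 stays between 0.44 and 0.57.

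Relative to the mean, intensities of each gene varied less between *atpd* arrays than between WT arrays, although the SD itself was larger in *atpd* for 4 of the 5. The coefficient of variation of the intensities was 4.30% to 10.4% in *atpd* and 14.0% to 35.9% in WT. It was 5.34% in *atpd* and 35.9% in WT for AT4G04370, whose mean percentile in WT was the lowest of the 5.

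The scaling of the arrays changed the sizes. With the values as deposited the median difference of all tested probes was 0.996 on the log2 scale, although some probes were lower in *atpd*. Relative to that median the 5 genes stood at 2.82 for AT4G04370, 2.28 for AT2G46050, 1.40 for AT4G21170, 0.68 for AT1G79080 and 0.34 for AT3G51320. With a common median for the arrays, AT3G51320 was at 0.17 (SE 0.15) and AT4G21170 at 1.23 (SE 0.21), where the median of all probes was -0.17. After cyclic loess AT3G51320 was at 0.62 (SE 0.14) and AT4G21170 at 1.46 (SE 0.21). AT1G79080 stayed between 0.51 and 0.52 in the 3 normalised scalings. The 3 with the larger differences kept the order AT4G04370, AT2G46050, AT4G21170 in all 4 scalings, and the 2 with the smaller ones changed places.

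**Figure D4:**
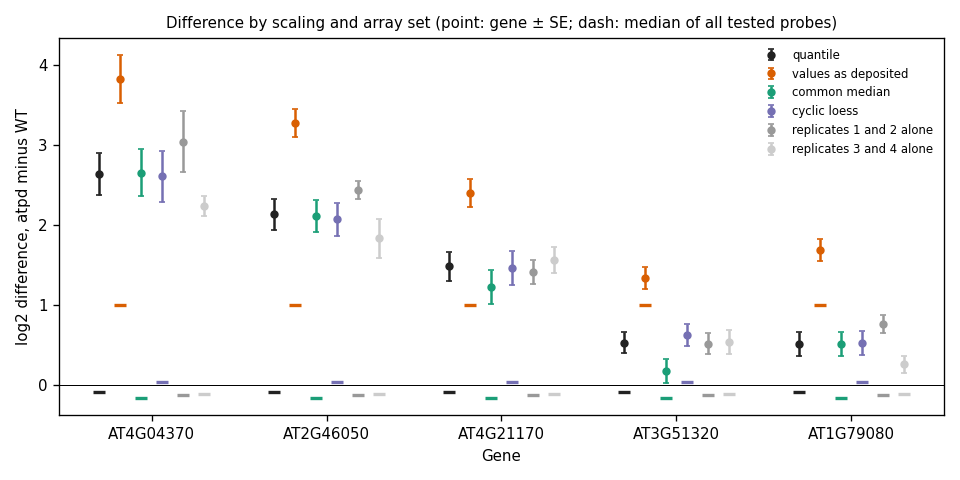
Log2 difference, *atpd* minus WT, of the 5 PPR genes (points, ± SE) under 4 scalings of the arrays and within each array set, with the median of all tested probes under the same setting as a dash. AT4G04370 lies between 2.23 and 3.82. AT3G51320 falls to 0.17 with a common median, and values as deposited carry every gene and the median of all probes (0.996) upward.

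The table holds 13 probes within 2 numbers of a member's, and their own log2 differences ran from -1.22 to 2.50. The highest mean among them was that of probe 3139, near the AT2G46050 probe (3141), at 2.92 in *atpd* and 0.336 in WT, and it had the difference of 2.50. The other 3 probes near that of AT2G46050 were also higher in *atpd*, with log2 differences of 0.64, 0.36 and 1.65. The labels do not say how probe numbers map to positions on the array, and the part of these probes in the members' values was not tested.

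Among the other single-gene probes above 0 on all arrays, those whose normalised profile was most like a member's over the 8 arrays were sought by Pearson correlation. The 8 arrays form 2 genotype groups, and every correlation spans both. For AT4G04370 they were AT1G07040 (r = 0.989) and AT1G32520 (r = 0.984). For AT2G46050 they were MAMI, a gene named for induction by mannitol (r = 0.986), and AT4G04370 itself (r = 0.978), the only case of a member among another member's closest profiles. For AT4G21170 they were AT2G04790 and AT4G32060, both at r = 0.994. For AT3G51320 they were AT4G12270 (r = 0.974) and NdhS, a subunit of the chloroplast NADH dehydrogenase-like complex (r = 0.953). For AT1G79080 they were AT3G57120 (r = 0.970) and AT1G07040 (r = 0.954). AT1G07040, found for both AT4G04370 and AT1G79080, had an intensity of 0.876 ± 0.0577 in *atpd* and 0.118 ± 0.0306 in WT (SD, n = 4 each) and a log2 difference of 1.73 (SE 0.23). Between the members r ranged from 0.747, for AT3G51320 and AT1G79080, to 0.978.

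A list of 82 further PPR loci, written from general knowledge of the family, served to set the 5 genes beside others of their kind. The array has a single-gene probe for 5 of them, OTP70, CRR21, OTP85, AT3G22150 and AT3G22690. The list does not cover the whole family, and PPR genes outside it were not sought among the probes. OTP70 is needed for splicing of a plastid RNA polymerase transcript, and CRR21 and OTP85 each for editing of a plastid *ndhD* site. The other 2 carry no symbol in the reference gene table. Of these 5 probes 3 had enough values to be tested, and in the limma fit 0 passed an adjusted p of 0.05 in either direction and 0 an unadjusted p of 0.05, against 21.4% of all tested probes called higher and 30.4% called lower. Their median log2 difference was -0.17, with -0.090 for all tested probes. These 3 probes are too few to be compared with those shares or to stand for other PPR genes.

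OTP70 had an intensity of 0.765, 0.743, 0.623 and 0.655 on the *atpd* arrays and 0.277, 0.535, 0.360 and 0.326 on the WT arrays, and a log2 difference of -0.17 (SE 0.23, limma adjusted p = 0.556). Its percentiles overlapped, at 50.6 to 67.1 in *atpd* and 54.1 to 79.0 in WT, although its raw intensities did not. CRR21 had an intensity of 0.364, 0.311, 0.465 and 0.536 in *atpd* and 0.210, 0.177, 0.140 and 0.233 in WT, with a log2 difference of -0.13 (SE 0.19, limma adjusted p = 0.584). Here too the raw values were apart and the percentiles overlapped, at 30.1 to 42.4 in *atpd* and 31.9 to 46.3 in WT. AT3G22150 stood at 0.188, 0.200, 0.181 and 0.212 in *atpd* and at 0.122, 0.0875, 0.202 and 0.0668 in WT, with a log2 difference of -0.68 (SE 0.31, limma adjusted p = 0.0925). WT array 3 was high, and without it the difference was -0.39 (limma adjusted p = 0.175), while without WT replicate 4 it was -0.84 and passed (limma adjusted p = 0.0460). With the values as deposited these 3 were higher by 0.94, 1.14 and 0.83 in the same order and passed the threshold. Relative to the median of all probes on that scale they were at -0.060, 0.14 and -0.16.

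OTP85 and AT3G22690 were listed at 0 on all 4 *atpd* arrays. OTP85 was at 0.0127 and 0.0165 on WT arrays 1 and 2 and at 0 on arrays 3 and 4. AT3G22690 was at 0.0136, 0.0501 and 0.0567 on WT arrays 1 to 3 and at 0 on array 4. No fold is given for either, and a value at 0 need not mean that the transcript was absent. The 5 PPR genes chosen for a higher signal and these 5 were not tested against each other, since the first were picked for their difference.

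**Figure D5:**
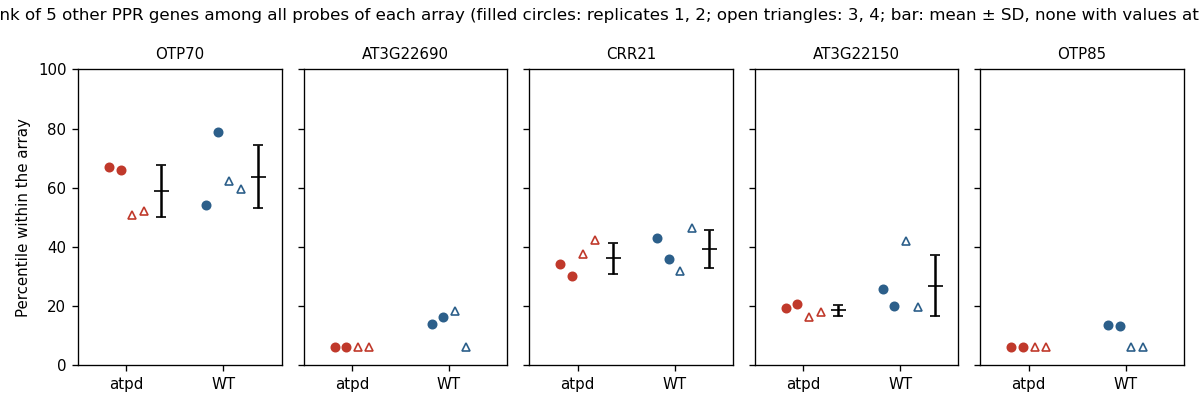
Percentile of the probes of 5 other PPR genes among all 3439 probes of each array on the 4 *atpd* arrays (left in each panel) and the 4 WT arrays, with the mean ± SD as a bar where no value was at 0. The genotypes overlap for OTP70, CRR21 and AT3G22150, and OTP85 and AT3G22690 lie at the level of probes listed at 0 in *atpd*.

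A second list of 38 loci for other factors of organelle RNA (editing cofactors, splicing factors, ribonucleases, RNA-binding proteins, sigma factors and phage-type RNA polymerases) had a single-gene probe for 0 of them, so these genes are not analysed here.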

How the data were processed

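The values deposited are intensities on a linear scale, 1 for each probe on each array. How the authors made them (background correction, scaling, the values at 0 and the ceiling at 100) is not given in the sources used here. Precision is limited by the number of arrays, 4 per genotype. Genotype and replicate number come from the sample titles. Probes were named through the platform annotation (692 with a single gene, 690 of them matched to the reference gene table, assembly TAIR10.1). That table was used for names and neighbouring genes only, since no build is named, and no coordinates are given.

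Values at 0 were treated as missing, and log2 intensities were quantile-normalised between arrays. Probes with at least 3 values per genotype (2921) were fitted with limma 3.58.1 (R 4.3.3, lmFit and eBayes, two-sided, Benjamini-Hochberg over all tested probes, threshold 0.05). The fit was also run on simulated data with independent arrays and the same SD for every probe. That run does not show how the fit behaves where arrays form sets, as they do here. The p-values rest on the spread between replicate arrays, which may be technical. The random block, arrays of the same genotype and array set, used duplicateCorrelation (statmod 1.5.0).

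The genes and lists were chosen with earlier results of these data known. Named are the 5 genes, the probes of both lists and, for each gene, the 2 single-gene probes with the highest correlation over 8 arrays. A further rule, to find PPR loci by protein sequence, was not applied, as no proteins were used here. Same-numbered arrays of the genotypes deviated together (correlations 0.276 to 0.362, all over 0.1). The numbers were therefore taken as pairs on the basis of the data and the titles. Arrays of the same set with different numbers gave 0.168 to 0.274, so the numbers within a set are not clearly told apart by these values.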

Additional observations from a re-analysis of the deposited data

How the results depend on the processing

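For the 5 genes, 20 alternatives each kept the direction, which their choice largely fixes. Of the 100 values, 86 moved by less than the spread between arrays. Some alternatives changed only the blocking, the variance prior or the minimum of values per genotype, which left the 5 differences unchanged by construction. The count of 86 therefore overstates how little the sizes depend on the processing. As deposited, AT4G04370 was at 3.82, AT2G46050 at 3.27, AT4G21170 at 2.39, AT3G51320 at 1.33 and AT1G79080 at 1.68, with the median of all probes at 0.996. With a common median AT4G21170 was at 1.23 and AT3G51320 at 0.17. A pseudocount of 0.1, which by construction compresses low values, gave 1.96 for AT4G04370 and 1.63 for AT2G46050. Replicates 1 and 2 alone gave 3.04 for AT4G04370, 2.44 for AT2G46050 and 0.76 for AT1G79080, and replicates 3 and 4 alone gave 1.83 for AT2G46050 and 0.26 for AT1G79080. Without each array in turn the ranges were 2.34 to 2.74 for AT4G04370, 2.03 to 2.30 for AT2G46050, 1.30 to 1.59 for AT4G21170, 0.46 to 0.58 for AT3G51320 and 0.45 to 0.58 for AT1G79080. Percentiles among single-gene probes changed the rises by less than the spread between arrays.

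Over all probes 1513 were called (625 higher, 888 lower, 41.3% higher). With a random block for arrays of the same genotype and array set 924 were called, where fewer independent units enter. As deposited 87.6% of the calls were higher (1829 against 260 lower). With the replicate block, the paired analysis, 1656 were called, and no call of the other PPR probes changed. Leaving out each array gave 1301 to 1478.

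Of the other PPR probes 0 were called, but 3 as deposited and 1 with zeros at the lowest positive value, where AT3G22690, at 0 on all *atpd* arrays, was tested and called lower, with a size set by that floor. Leaving out each array gave 0 to 1. Directions reversed for AT3G22150 (0.83), CRR21 (1.14) and OTP70 (0.94) as deposited, for CRR21 in replicates 3 and 4 alone (0.083) and for OTP70 without WT replicate 2 (0.012, the highest value without an array, the lowest being -0.28). The scale as deposited raises the median of all probes, and the cause of the reversals was not tested. The list of other organelle RNA factors had no probe and gave no value. By Dixon's Q, the gap of an array to its nearest neighbour over the range, none of 16 groups of 4 arrays had a flagged array. The largest Q was 0.806, for AT4G04370 on WT array 2, just under the critical value of 0.829. With 4 arrays only extreme gaps are flagged, so an array can still lie well away from the others.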
